A study of Homo sapiens with 6 samples.

Results

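The genes described here are 46 genes of oxidative stress defence around the transcription factor NRF2, chosen by name from the 58735 genes of the count table. They were followed in HCT-8, an established line of human colorectal adenocarcinoma kept in RPMI-1640 medium with serum. RNA was sequenced from 3 samples of untreated cells (control) and 3 samples of cells given 5-fluorouracil (5-FU), a pyrimidine analog whose products inhibit thymidylate synthase and are built into nucleic acids. Treatment was at the concentration that inhibits by 10%, which the submitters took as a model of continuous infusion; the labels give neither a molar dose nor a duration. All samples come from 1 unmodified line, and nothing in the labels says that they were separate cultures, so each p-value reflects only how much these samples vary, and that variation may be technical.

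NRF2, encoded by NFE2L2, is held low in unstressed cells by KEAP1, an adaptor that hands it to the CUL3 ubiquitin ligase. Oxidants and electrophiles that modify KEAP1 free NRF2, which then binds antioxidant response elements with small MAF proteins. Its targets make and recycle glutathione, reduce thioredoxin, detoxify quinones and carbonyls, supply NADPH, and store or release iron. Colorectal epithelial cells meet dietary and microbial oxidants and express many of these genes at high levels.

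Promoter letters for the antioxidant response element are shown first because the same core stands before genes that changed by different amounts after 5-FU. Log2 fold changes of the genes found with it ran from -1.83 (KEAP1) to -0.29 (GCLM, not called). None of them was called higher, but only 4 of the 46 were, and HMOX1, with the largest rise, had no promoter sequence to search. The core searched was TGACNNNGC on both strands, together with the AP-1 letters TGANTCA, in RefSeq windows of 250 bases before to 50 after each transcription start (GRCh38.p14). Of the 46 genes 36 had a window; SLC7A11, GSS, GSR, MGST2, PRDX1, PRDX6, AKR1B10, HMOX1, FTH1 and SOD1 had none in the table. The core was found for 9 of the 36 genes, or 25%, against 16.1% of all 27305 genes with a window. By window it was in 10 of 48 (20.8%), against 13.3% of all 35116 windows, and it overlapped the AP-1 letters in 3 of 48 against 0.561% of all. The 9 genes were AIFM2, GCLM, GPX2, GSTO1, GSTP1, KEAP1, ME1, MGST1 and TXNRD1. In 45 of the 48 windows the bases past the start lie in a GENCODE 29 transcript. The windows with the core in GSTP1 and MGST1 did not pass that check. These are matches of letters in a short window; no binding was measured, and a gene without a match can carry the core elsewhere.
In the stretches below, each on its gene's own strand, capitals mark the core. It reads TGACTCAGC in GSTP1 and ME1 and, on the opposite strand, in AIFM2, and there it overlaps the AP-1 letters. On the opposite strand it reads TGACTAAGC in GCLM and KEAP1 and TGACTTAGC in GPX2.
GSTP1: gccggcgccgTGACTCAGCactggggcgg
ME1: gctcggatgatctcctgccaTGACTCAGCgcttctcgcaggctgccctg
AIFM2: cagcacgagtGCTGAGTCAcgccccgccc
GCLM: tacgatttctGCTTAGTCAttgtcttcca
KEAP1: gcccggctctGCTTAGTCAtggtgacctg
GPX2: acctgtttttGCTAAGTCAtcctggggat
They lie at chr11:67583736-67583764 (GSTP1, plus strand), chr6:83431160-83431208 (ME1, minus), chr10:70132829-70132857 (AIFM2, minus), chr1:93909446-93909474 (GCLM, minus), chr19:10502784-10502812 (KEAP1, minus) and chr14:64942849-64942877 (GPX2, minus).

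Counts per library summed to between 18459939 and 23495607. Mitochondrially encoded transcripts took 4.66% to 4.88% of counts in control and 25.5% to 28.5% in 5-FU libraries, so the scaling of libraries bears on every nuclear gene. With upper-quartile factors in place of TMM, the median log2 fold change of all tested genes moved from 0.09 to 0.45. It was 0.09 with mitochondrially encoded genes left out of the fit. Of the genes called in either direction 51.7% were higher with TMM factors and 67.5% with upper-quartile factors, and 37.7% on the FPKM table with a filter on low values. The 10 markers of colorectal epithelium listed for the check (such as EPCAM, KRT8 and VIL1) all had counts, and summed to 4779 to 6257 CPM (counts scaled to the size of the library) in control and 3679 to 4665 in 5-FU libraries. Of 6 fibroblast markers DCN and LUM had no count in any library, and the sum of the list was 14.9 to 18.9 CPM in control and 35.6 to 67.4 after 5-FU. The 6 leukocyte markers summed to at most 8.50 CPM and the 4 endothelial markers to at most 5.79 CPM in any library. Apart from the fit without mitochondrially encoded genes, the part of these shifts in the results was not tested.

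Most of the 46 redox genes were lower after 5-FU. All 46 passed the filter on low counts; 35 fell, 4 rose and 7 were not called by the quasi-likelihood test of edgeR, where a call needs an adjusted p below 0.05. Of all 19771 tested genes 70.2% were called, 33.9% lower and 36.3% higher, against 76.1% lower among the redox genes. Their median log2 fold change was -1.01, against 0.09 for all tested genes. With a stricter filter (mean count 50 or more) it was -0.77 against 0.02, and with no filter -1.16 against 0.63. The 3 control and 3 5-FU values did not overlap for 39 of the 46, where the share over all genes was 74.3%. Groups that do not overlap, given for single genes below, were thus common. A fall of at least 2-fold was called for 23 of them, and for 16.2% of all genes. These are levels relative to the rest of the RNA; fewer transcripts in every cell and a change in which cells were present cannot be told apart.

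Abundant genes fell often in these libraries, and most redox genes are abundant. Of the 46 genes 35 lay in the top quintile of tested genes by mean count. Of those 35, 28 fell (80.0%), 3 rose and 4 were not called, at a median of -1.14, whereas 60.8% of all 3954 genes in that quintile fell and 17.5% rose, at a median of -0.54. Among the 11 less abundant redox genes 7 fell and 1 rose. The shares of the top quintile do not apply to these 11, and those of all genes below it were not computed. Over all tested genes, the top quintile included, 33.9% fell and 36.3% rose.

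**Figure D1:**
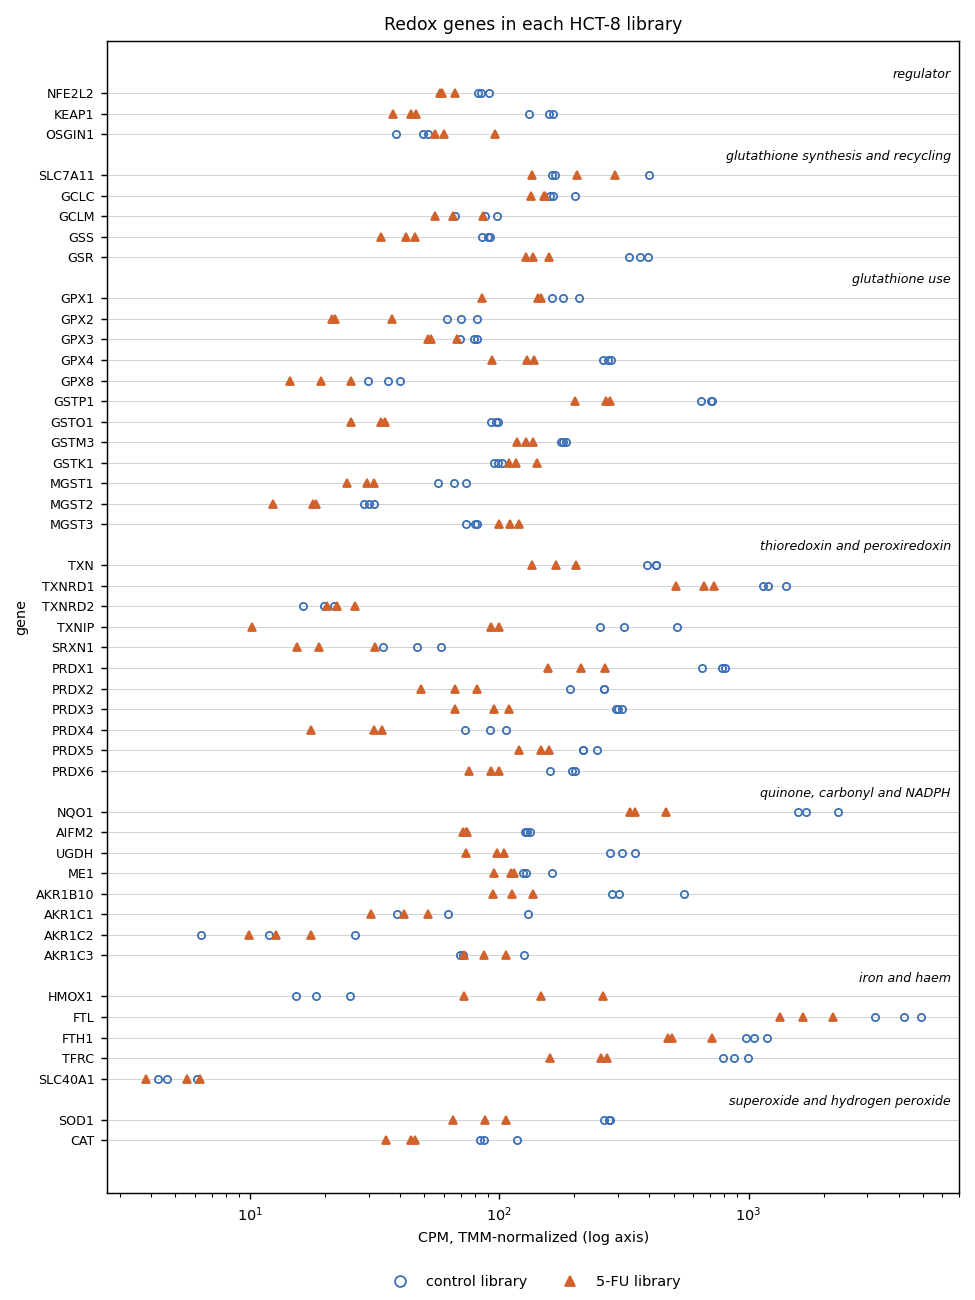
TMM-normalized CPM (log axis) of the 46 redox genes in each of the 3 control (open circles) and 3 5-FU (filled triangles) libraries, in 7 branches. For 39 genes the groups do not overlap; HMOX1 stands out to the right of its controls, and TXNIP has 1 5-FU library at 10.2 CPM far below the others.

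The libraries of a group were not alike for these genes. Control replicate 2 had the highest CPM of its group for 27 of the 46 genes (58.7%), compared with 36.0% of all tested genes and 23.9% of the top quintile. In the 5-FU group, replicate 3 was highest for 33 of 46 (71.7%), compared with 31.9% of all genes and 43.0% of the top quintile. Without control replicate 2 the count was 33 lower and 3 higher, and without 5-FU replicate 3 it was 35 lower and 2 higher. Results that rest on either library are given with and without it.

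**Figure D2:**
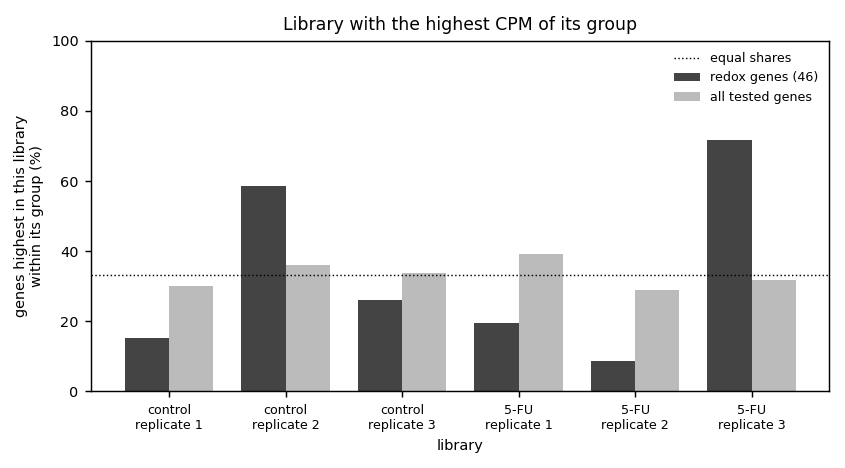
Percent of genes whose CPM was highest in a given library of its own group, for the 46 redox genes (dark bars) and all tested genes (light bars), with equal shares of the 3 libraries as a dotted line. Control replicate 2 (58.7%) and 5-FU replicate 3 (71.7%) hold the highest value of most redox genes.

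Both ends of the switch itself fell. KEAP1 (chromosome 19, 10486120 to 10503741, minus strand) had 158, 132 and 165 CPM in control and 37.3, 44.2 and 46.4 CPM in 5-FU libraries, a log2 fold change of -1.83 (SE 0.13, adjusted p = 1.46e-06). NFE2L2 (chromosome 2, 177227595 to 177392697, minus strand) had 84.4, 90.7 and 82.5 CPM in control and 58.7, 57.9 and 66.1 after 5-FU, a log2 fold change of -0.49 (SE 0.11, adjusted p = 0.00202). Neither gene's groups overlapped. The NFE2L2 call was lost with upper-quartile factors (-0.14, adjusted p = 0.283) and with a stricter filter (mean count 50 or more) (-0.24, adjusted p = 0.0591). NFE2L2 also shares 17.6% of its exonic bases with other annotation transcribed in its own direction. What this sharing did to the counts of NFE2L2, and to its ratio with KEAP1, was not tested. Per gene length, KEAP1 counts stood at 2.80 times those of NFE2L2 in control and at 1.11 times after 5-FU. That ratio does not depend on how libraries are scaled; its log2 was lower in each 5-FU library than in any control library, by 1.33 between the group means (exact two-sided permutation p = 0.1, the smallest that 3 against 3 can give; 0.175 adjusted over 7 pairs).

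OSGIN1, a growth inhibitor induced by oxidative stress, went the other way. It had 38.4, 51.5 and 49.1 CPM in control and 60.2, 54.9 and 95.6 CPM in 5-FU libraries, and rose by 0.60 on the log2 scale (SE 0.20, adjusted p = 0.0174). The highest value came from 5-FU replicate 3; without that library the change was 0.29 (adjusted p = 0.125), and without control replicate 1 it was 0.45 (adjusted p = 0.0960). On the FPKM table the call was lost too (limma adjusted p = 0.133 to 0.235). Another annotated gene on the same strand, AC009119.2, covers 13.9% of the exonic bases of OSGIN1.

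In the glutathione branch, the last step of synthesis and the recycling enzyme fell, while the cystine importer and the rate-limiting ligase were not called. Glutathione reductase, GSR, which regenerates reduced glutathione with NADPH, had 333, 393 and 367 CPM in control and 128, 136 and 158 CPM after 5-FU (log2 fold change -1.37, SE 0.13, adjusted p = 6.07e-06). Glutathione synthetase, GSS, which joins glycine to the dipeptide, had 91.9, 89.7 and 85.5 CPM against 33.4, 45.9 and 42.2 (log2 fold change -1.14, SE 0.13, adjusted p = 1.96e-05). For both genes every 5-FU library lay well below every control library. 

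GCLC and GCLM, the catalytic and modifier subunits of glutamate-cysteine ligase, form the first and limiting step. GCLC had 160, 200 and 164 CPM in control and 151, 134 and 152 CPM in 5-FU libraries, groups that did not overlap but lay close (log2 fold change -0.27, 95% interval -0.55 to 0.01, adjusted p = 0.0822). GCLM had 66.5, 97.8 and 87.8 CPM against 65.2, 55.0 and 86.1, with overlapping groups (log2 fold change -0.29, 95% interval -0.68 to 0.10, adjusted p = 0.169). Their ratio per gene length, 1.32 in control and 1.35 after 5-FU, moved by 0.03 on the log2 scale (exact two-sided permutation p = 0.9). With upper-quartile factors both fold changes turned positive (0.09 for GCLC and 0.06 for GCLM). GCLC passed as lower on the FPKM table and when no gene was filtered out (-0.41, adjusted p = 0.0123). GCLM passed as lower without that filter (-0.43, adjusted p = 0.00739), without control replicate 1 (-0.47, adjusted p = 0.0439) and without 5-FU replicate 3 (-0.51, adjusted p = 0.0253).

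SLC7A11, the xCT subunit that imports cystine, varied more within groups than between them. It had 162, 399 and 167 CPM in control and 204, 135 and 291 CPM in 5-FU libraries, with a log2 fold change of -0.21 (95% interval -0.95 to 0.53, adjusted p = 0.594). Control replicate 2 held the highest value; without it the fold change was 0.31 (adjusted p = 0.284), and without 5-FU replicate 2 it was 0.01. Without a filter on low counts it passed as lower (-0.35, adjusted p = 0.0390).

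In the branch of glutathione use 10 of 12 genes fell and 2 rose. Of all tested genes 33.9% fell, and of the top quintile by mean count 60.8%. GSTO1, an omega class transferase that also reduces dehydroascorbate, had 96.9, 92.4 and 99.1 CPM in control and 25.5, 33.4 and 34.6 CPM after 5-FU (log2 fold change -1.62, SE 0.13, adjusted p = 2.64e-06). GSTP1, the pi class transferase that is abundant in many tumours, had 704, 647 and 715 CPM against 202, 269 and 279 (-1.46, SE 0.15, adjusted p = 9.68e-06). In both genes every 5-FU library lay far below every control library. The microsomal transferase MGST1 had 73.7, 56.6 and 65.9 CPM against 24.5, 29.4 and 31.5 (-1.20, SE 0.14, adjusted p = 2.04e-05), and MGST2 (-0.89) and the mu class GSTM3 (-0.50) fell as well. The GSTM3 call was lost with upper-quartile factors (adjusted p = 0.264) and with a stricter filter (mean count 50 or more) (0.0548).

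Glutathione peroxidases, which reduce peroxides at the cost of glutathione, all fell. GPX4, which clears lipid hydroperoxides from membranes and restrains ferroptosis, had 274, 260 and 281 CPM in control and 93.5, 130 and 138 CPM after 5-FU (log2 fold change -1.18, SE 0.15, adjusted p = 3.95e-05). GPX2, the gastrointestinal enzyme, fell by 1.41 on the log2 scale (SE 0.20) and GPX8, of the endoplasmic reticulum, by 0.83 (SE 0.19). The cytosolic GPX1 (-0.56, SE 0.19) and the secreted GPX3 (-0.41, SE 0.13) changed least. Their calls were lost with upper-quartile factors (adjusted p = 0.314 and 0.712) and with a stricter filter (mean count 50 or more) (0.161 and 0.279). That of GPX1 was also lost without control replicate 3 (0.0633) and in limma on unfiltered FPKM (0.0781). That of GPX3 was lost without 5-FU replicate 1 (0.0551) or 2 (0.0798) and with plain library totals (0.0545).

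Both transferases that rose did so modestly. MGST3, a microsomal transferase, had 79.8, 81.2 and 73.6 CPM in control and 111, 99.7 and 120 CPM in 5-FU libraries (log2 fold change 0.49, SE 0.12, adjusted p = 0.00253), and kept its call in every setting tried. GSTK1, the kappa class enzyme of mitochondria and peroxisomes, had 98.6, 102 and 94.8 CPM against 141, 109 and 117 (0.31, SE 0.12, adjusted p = 0.0407). Its call was lost in 13 of 18 alternatives, among them DESeq2 (adjusted p = 0.0756), the replicate number as a block (0.0834) and any setting without a control library (0.0766 to 0.171).

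**Figure D3:**
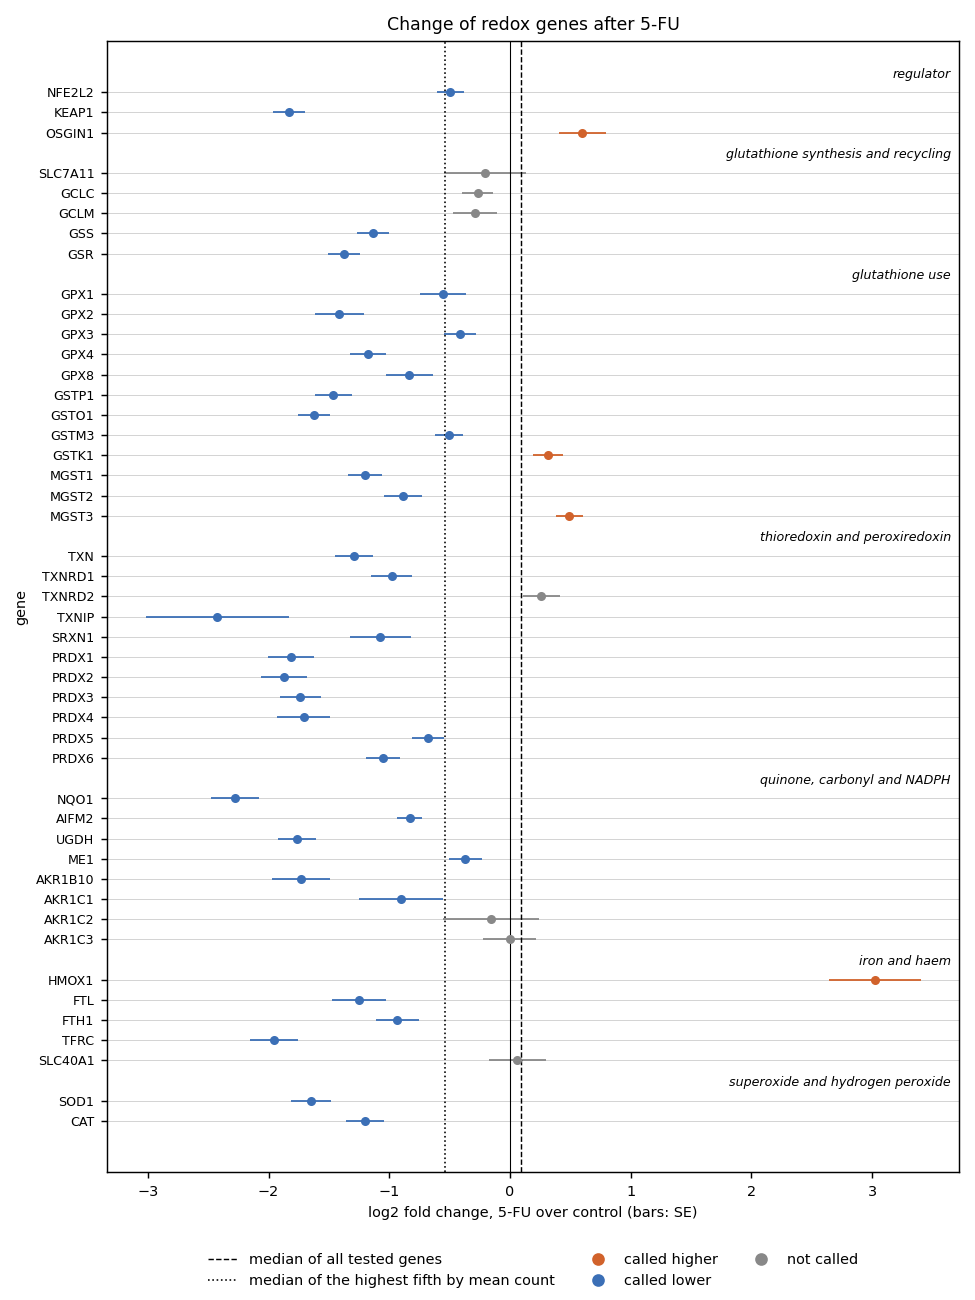
Log2 fold change of 5-FU over control for each redox gene with its SE (bars), coloured by edgeR call, with the median of all tested genes (dashed, 0.09) and of the top quintile by mean count (dotted, -0.54). HMOX1 (3.03) lies far to the right, and most genes of the thioredoxin branch lie left of both medians.

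The thioredoxin branch fell in 10 of 11 members, at a median of -1.29. The shares that fell were 33.9% of all tested genes and 60.8% of the top quintile by mean count. Peroxiredoxins reduce peroxides through a reactive cysteine that thioredoxin regenerates. PRDX3, the mitochondrial member, had 311, 294 and 299 CPM in control and 66.4, 95.2 and 109 CPM after 5-FU (log2 fold change -1.74, SE 0.17, adjusted p = 6.29e-06). PRDX2 had 262, 192 and 263 CPM against 48.6, 66.2 and 81.2 (-1.87, SE 0.19, adjusted p = 8.44e-06). PRDX1, the most counted of the family, had 649, 783 and 802 CPM against 157, 213 and 266 (-1.81, SE 0.19, adjusted p = 1.01e-05). In all 3 genes the highest 5-FU library stayed below the lowest control library by a wide margin. Exons of MMACHC on the opposite strand cover 24.9% of the exonic bases of PRDX1. PRDX4 of the endoplasmic reticulum (-1.71), PRDX6, which has a single reactive cysteine (-1.05), and PRDX5 (-0.68, SE 0.14) fell as well. PRDX3 was low in every 5-FU library, and every 5-FU library held a larger share of mitochondrially encoded transcripts than control. PRDX3 kept its call with those transcripts left out of the fit, but the part of their share was not tested otherwise.

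Thioredoxin itself, TXN, had 426, 391 and 426 CPM in control and 135, 169 and 204 CPM after 5-FU (log2 fold change -1.29, SE 0.16, adjusted p = 2.53e-05). The cytosolic reductase that recharges it, TXNRD1, fell by 0.98 on the log2 scale (SE 0.17), from 1249 ± 140 to 634 ± 112 CPM (mean ± SD, n = 3 per group). The mitochondrial thioredoxin reductase, TXNRD2, was not called. It ranged from 16.3 to 21.6 CPM in control and from 20.4 to 26.4 CPM in 5-FU libraries (log2 fold change 0.26, 95% interval -0.08 to 0.60, adjusted p = 0.147). TXNRD2 passed as higher with upper-quartile factors (0.62, adjusted p = 0.00232), with a stricter filter (mean count 50 or more) (0.51) and with plain library totals (0.37). Per gene length TXNRD1 exceeded TXNRD2 by 81.2 times in control and 34.1 times after 5-FU, and the log2 ratio was lower in every 5-FU library (difference -1.25, exact two-sided permutation p = 0.1). Sulfiredoxin, SRXN1, which restores overoxidized peroxiredoxins, fell by 1.07 on the log2 scale (SE 0.25). Another annotated gene on the same strand, AL121758.1, covers 85.0% of the exonic bases of SRXN1, so its value is uncertain.

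TXNIP, the protein that binds and inhibits thioredoxin, showed the largest fall of the 46 genes and the widest spread; it was singled out after its values were seen. It had 252, 518 and 317 CPM in control and 99.6, 92.8 and 10.2 CPM in 5-FU libraries (log2 fold change -2.43, SE 0.59, adjusted p = 0.00328). In counts, 5-FU replicate 3 held 215 reads where the other 5-FU libraries held 1956 and 1780. Without that library the fold change was -1.94 (adjusted p = 0.000142). That of NQO1 ran from -2.46 to -2.14 when any 1 library was left out. The rank of TXNIP as the largest fall thus did not hold without 5-FU replicate 3. The log2 ratio of TXN to TXNIP overlapped between groups and moved by 1.62 (exact two-sided permutation p = 0.2), or by 0.39 without 5-FU replicate 3.

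Quinone, carbonyl and NADPH enzymes fell in 6 of 8 cases, led by NQO1. The share lower was 33.9% over all tested genes and 60.8% in the top quintile by mean count. NQO1 is the 2-electron quinone reductase whose transcript is a common readout of NRF2 activity. It had 1585, 2294 and 1706 CPM in control and 334, 352 and 466 CPM after 5-FU (log2 fold change -2.28, SE 0.20, adjusted p = 3.26e-06), and the highest 5-FU library lay far below the lowest control library. Exons of an opposite-strand gene, AC092115.2, cover 17.7% of its exonic bases. AIFM2, also called FSP1, a ubiquinone reductase that protects membranes from lipid peroxidation independently of glutathione, fell less and with little spread. It had 130, 126 and 133 CPM against 71.3, 73.2 and 74.1 (-0.83, SE 0.11, adjusted p = 3.49e-05). Their ratio per gene length went from 22.4 to 8.22, with a log2 difference of -1.44 (exact two-sided permutation p = 0.1).

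UGDH, which makes UDP-glucuronate for conjugation, had 279, 350 and 310 CPM in control and 104, 73.4 and 98.1 CPM after 5-FU (log2 fold change -1.77, SE 0.16, adjusted p = 3.73e-06). The malic enzyme ME1, a source of cytosolic NADPH, had 125 to 162 CPM against 95.4 to 115 (-0.37, SE 0.14, adjusted p = 0.0289). The ME1 call was lost in 6 alternatives: with upper-quartile factors (adjusted p = 0.928), with a stricter filter (mean count 50 or more) (0.450), with the replicate number as a block (0.0645), without control replicate 2 (0.0779), without 5-FU replicate 2 (0.123) and with plain library totals (0.115).

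The aldo-keto reductases, which reduce carbonyls and steroids, split by gene. AKR1B10 had 303, 553 and 283 CPM in control and 136, 94.4 and 113 CPM after 5-FU (log2 fold change -1.73, SE 0.24, adjusted p = 7.06e-05). AKR1C1 had 38.9, 130 and 61.9 CPM against 51.8, 30.4 and 41.5, with overlapping groups (-0.90, SE 0.35, adjusted p = 0.0357). Its call rested on control replicate 2: without that library the change was -0.33 (adjusted p = 0.225). The call was lost in 12 of 18 alternatives in all, among them DESeq2 (0.114), limma-voom (0.0730), the replicate block (0.0716) and leaving out 5-FU replicate 2 (0.118) or 3 (0.0654). AKR1C2 (6.33 to 26.4 CPM in control, 9.86 to 17.5 after 5-FU; log2 fold change -0.16, 95% interval -1.03 to 0.72) was not called. For AKR1C3 (69.5 to 125 CPM in control, 72.0 to 107 after 5-FU) the log2 fold change was 0.00, with a 95% interval of -0.48 to 0.48. The signs of both depended on the setting. AKR1C paralogs are close copies: 28.6% of the 50-base stretches in AKR1C1 transcripts and 38.9% of those in AKR1C2 transcripts also occur in transcripts of other genes, mostly each other's, so their values are uncertain.

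In the iron branch 1 gene rose steeply while the ferritin chains and the iron importer fell. HMOX1, haem oxygenase 1, breaks haem into iron, biliverdin and carbon monoxide and is induced by haem and many stresses. It had 18.4, 25.3 and 15.2 CPM in control and 147, 72.2 and 261 CPM in 5-FU libraries, an 8.14-fold rise (log2 fold change 3.03, SE 0.38, adjusted p = 3.15e-05). The lowest 5-FU library lay above the highest control library, and the treated libraries differed among themselves by 3.61 times. Without 5-FU replicate 3, the highest, the log2 fold change of HMOX1 was 2.45 (adjusted p = 3.21e-05). In length-scaled FPKM, HMOX1 moved from the 43rd of the 46 genes in control (8.45 ± 2.05) to the 10th after 5-FU (62.5 ± 38.1; SD, n = 3).

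TFRC, the transferrin receptor that brings iron in, had 993, 792 and 872 CPM in control and 160, 255 and 272 CPM after 5-FU (log2 fold change -1.95, SE 0.20, adjusted p = 8.33e-06). FTL, the ferritin light chain, had 3209, 4906 and 4190 CPM against 1340, 1651 and 2188 (-1.25, SE 0.22, adjusted p = 0.000432). FTH1, the ferroxidase heavy chain, had 974, 1187 and 1053 CPM against 477, 493 and 714 (-0.93, SE 0.18, adjusted p = 0.00069). All 3 genes had groups that did not overlap. The FTL call was lost only in limma on unfiltered FPKM (-1.40, adjusted p = 0.328). Both ferritin genes have copies: 25 annotated pseudogenes of FTH1 and 16 of FTL, and exons of BEST1 on the opposite strand cover 62.4% of the exonic bases of FTH1. The log2 ratio of FTH1 to FTL overlapped between groups (difference 0.30, exact two-sided permutation p = 0.2). SLC40A1, ferroportin, the only known iron exporter, was scarce, at 4.26 to 6.10 CPM in control and 3.81 to 6.27 CPM after 5-FU (log2 fold change 0.06, 95% interval -0.46 to 0.58). The log2 ratio of import to export, TFRC to SLC40A1, was lower in every 5-FU library, by 2.03 (exact two-sided permutation p = 0.1).

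SOD1, which turns superoxide into hydrogen peroxide in the cytosol, had 263, 274 and 277 CPM in control and 65.4, 87.9 and 107 CPM after 5-FU (log2 fold change -1.65, SE 0.17, adjusted p = 7.46e-06). Catalase, CAT, which removes hydrogen peroxide in peroxisomes, had 83.4, 118 and 86.9 CPM against 44.1, 35.2 and 45.7 (-1.20, SE 0.16, adjusted p = 4.49e-05). Both genes had every 5-FU library below every control library.

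**Figure D4:**
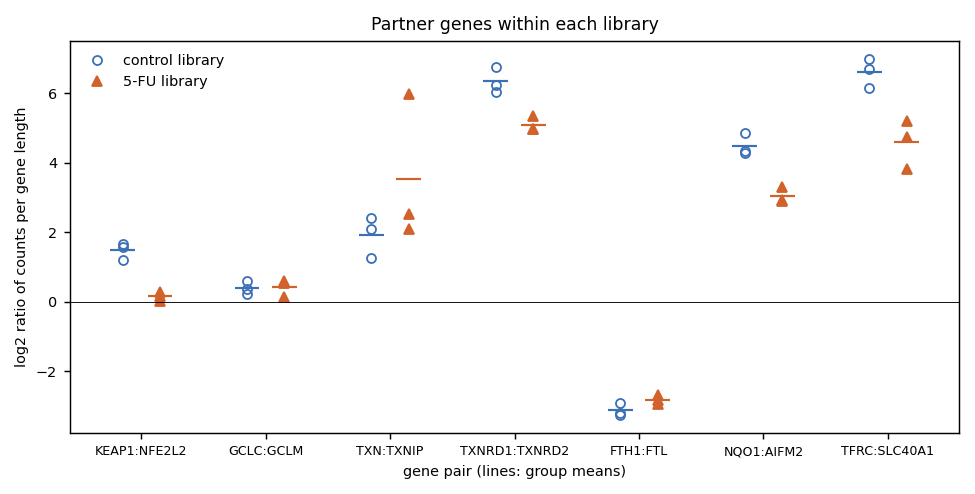
Log2 ratio of counts per gene length for 7 gene pairs in each library (open circles control, filled triangles 5-FU, lines group means). The groups do not overlap for KEAP1 to NFE2L2, TXNRD1 to TXNRD2, NQO1 to AIFM2 and TFRC to SLC40A1, and they overlap for the other 3 pairs.

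The branches are set side by side here by their medians. The median log2 fold change was -1.29 in the thioredoxin branch, -0.93 in the iron branch and -0.86 in the branch of glutathione use. It was -0.86 in the quinone branch and -0.29 for glutathione synthesis and recycling. The median was 0.09 for all tested genes and -0.54 for the top quintile by mean count. All 5 genes of glutathione synthesis and recycling lie in that quintile, so their median fall was smaller than that of the quintile. Superoxide and hydrogen peroxide, with 2 genes, had a median of -1.43, and the 3 regulators had -0.49. In glutathione synthesis and recycling 3 of 5 genes were not called, and its median was 0.065 with upper-quartile factors. Summed over its genes, the thioredoxin branch went from 3609 to 4139 CPM in control to 1264 to 1745 CPM in 5-FU libraries, and the iron branch from 5198 to 6916 CPM to 2129 to 3440 CPM. The glutathione synthesis branch summed to 814 to 1180 CPM in control and to 506 to 729 CPM after 5-FU. Differences between branches were not tested. Among the genes whose promoter letters are shown above, those sharing TGACTCAGC had log2 fold changes of -1.46 (GSTP1), -0.83 (AIFM2) and -0.37 (ME1). Those sharing TGACTAAGC had -1.83 (KEAP1) and -0.29 (GCLM, not called). 

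Levels compared across genes are in FPKM, which divides by gene length. FTL was the highest of the 46 in both groups, at 4838 ± 940 FPKM in control and 1854 ± 507 after 5-FU (mean ± SD, n = 3). NQO1 was the second in control (592 ± 110) and the seventh after 5-FU (111 ± 23.2), while FTH1 moved from the third (547 ± 46.3) to the second (260 ± 66.9). PRDX5 moved from the seventh (264 ± 15.4) to the third (149 ± 25.3), and SLC40A1 was the lowest in both groups (1.03 to 1.43 FPKM in control and 0.841 to 1.31 after 5-FU). NQO1 and FTH1 differed in control by less than their spread.

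Other genes of the same pathways, from a list of 104 that holds none of the 46, were described in the same way: 65 of the 100 tested were lower, 13 higher and 22 not called, at a median of -0.82. Over all tested genes 33.9% were lower and 36.3% higher, and in the top quintile by mean count 60.8% were lower. Part of the list lies below that quintile, so neither share is matched to it in abundance. In each list the called genes of smallest p are named. Enzymes that supply NADPH or reduce carbonyls fell in 15 of 19 cases and rose in 1, at a median of -1.24; those of smallest p were the mitochondrial isocitrate dehydrogenase IDH2 (109 ± 12.8 to 22.2 ± 3.10 CPM; log2 fold change -2.29, SE 0.14) and the aldo-keto reductase AKR7A2 (-1.78, SE 0.13). In the thioredoxin and methionine repair list 10 of 14 tested fell and 1 rose; those of smallest p were the methionine sulfoxide reductase MSRB1 (-2.03, SE 0.16) and TXNDC5 (-1.99, SE 0.21). Of 17 tested iron and haem genes 12 fell and 3 rose; PCBP1, an iron chaperone, fell by 1.77 and FECH, which inserts iron into haem, by 1.64 on the log2 scale. Mitochondrial superoxide dismutase, SOD2 (-1.42, SE 0.16), and PARK7 (-1.58, SE 0.17) had the smallest p among the 11 tested superoxide, peroxide and lipid peroxide genes, of which 7 fell and 1 rose.

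Of 14 regulators of NRF2 outside the 46, 7 fell and 1 rose, a share lower that lies between the 33.9% of all tested genes and the 60.8% of the top quintile. RBX1, the RING subunit of the KEAP1 ubiquitin ligase, fell from 79.4 ± 4.53 to 29.8 ± 4.99 CPM (log2 fold change -1.41, SE 0.14, adjusted p = 6.32e-06; mean ± SD, n = 3 per group). DPP3, a protein that can bind KEAP1, fell by 1.34 on the log2 scale (SE 0.13). CUL3, BACH1, MAFK and SQSTM1 were picked with their values in view. The ligase scaffold CUL3 fell by 0.93 (SE 0.13), and BACH1, the repressor that competes with NRF2 at HMOX1, fell by 0.48 (SE 0.14, adjusted p = 0.00809). MAFK, a small MAF partner, was the gene that rose (0.72, SE 0.13). SQSTM1, the autophagy receptor that can sequester KEAP1, had 1058 ± 148 CPM in control and 895 ± 219 after 5-FU (-0.24, adjusted p = 0.272).

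Of 25 remaining glutathione genes tested, 14 were lower, 6 higher and 5 not called, where 33.9% of all tested genes were lower and 36.3% higher. GSTM2, a mu class transferase, rose from 7.62 ± 2.07 to 37.1 ± 4.30 CPM (log2 fold change 2.29, SE 0.20, adjusted p = 3.21e-06), and GGCT, a gamma-glutamyl cyclotransferase, fell by 1.91 (SE 0.17). Named after their values were seen, GGT1 (1.76, SE 0.17) and GGT7 (1.18, SE 0.15), of the family of gamma-glutamyl transferases that cleave glutathione outside the cell, rose. The conjugate exporters of the list differed: ABCC3 (1.10, SE 0.20) and ABCC1 (0.53, SE 0.12) rose, ABCC4 fell (-0.57, SE 0.15) and ABCC2 was not called (-0.12, SE 0.20). Mu class transferases are close paralogs, and reads can be shared among them.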

How the data were processed

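RNA of 3 control and 3 5-FU samples of HCT-8 cells was extracted with TRIzol and made into libraries with the NEBNext Ultra RNA kit, per the labels' protocols. The tools named in the submitters' processing notes are featureCounts 1.5.0-p3, HISAT2 2.0.5 and DESeq2 1.16.1, with the build GRCh38; no source used here gives the strand setting or the treatment of multi-mapping reads. Raw counts of 58735 genes make up the deposited count table, whose gene identifiers, starts and ends all matched GENCODE release 29. The deposited FPKM table equals count over gene length and 1 constant per library. That constant was 0.892 to 0.986 times the count total in control and 1.07 to 1.16 times in 5-FU libraries, so the authors' FPKM carry a scaling beyond the total.

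Groups follow the treatment label. Counts were tested with edgeR 4.0.16 (R 4.3.3): filterByExpr at a minimum count of 10 and a minimum total of 15, TMM factors, group as the design, the quasi-likelihood test, and Benjamini-Hochberg adjustment over all 19771 tested genes, called at an adjusted p under 0.05. CPM are TMM-normalized, except sums of cell type markers, which use plain totals. The SE is the unshrunk coefficient over the square root of F. The script was tested on simulated counts. Partner ratios used an exact permutation test.

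The 46 genes and all lists were chosen with earlier results of these data known. Values per library are given for NFE2L2 and KEAP1, for up to 4 genes of smallest p per branch and for genes called against their branch; of the other pathway lists up to 2 called genes of smallest p were named. SOD2 has 2 identifiers, of which the more counted was used. Alternatives were DESeq2 size factors, upper-quartile factors, a mean count of 50 or more as the filter or no filter, DESeq2 1.42.0, limma-voom (limma 3.58.1), the replicate block, leaving out each library or the mitochondrial genes, and limma-trend on the FPKM table, with a pseudocount of 1 or 0.1, for genes with FPKM of at least 1 in 3 libraries, or unfiltered; plain library totals were added after seeing the data. Fold changes on log2(FPKM + 1) understate changes of low genes.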

Additional observations from a re-analysis of the deposited data

How the results depend on the processing

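Of the 39 called redox genes 30 kept their call and direction in each of the 18 alternatives that tested them; the other 9 are described with their values above. The count of redox genes that fell ranged from 29, with upper-quartile factors or a mean count of 50 or more as the filter, to 38 without the low-count filter, and from 32 to 36 when 1 library was left out. The count that rose was 4, 5 with upper-quartile factors, the filter of 50 or plain library totals, 2 in each fit to the FPKM table (log2(FPKM + 1), log2(FPKM + 0.1) and unfiltered) and 2 to 4 when 1 library was left out. Over all genes 7171 rose, against 9602 with upper-quartile factors, 8157 without the low-count filter, 4320 with log2(FPKM + 1) and 4268 with log2(FPKM + 0.1). With the replicate block 33 redox genes fell and 3 rose. With mitochondrially encoded genes left out 35 fell and 3 rose, at a median log2 fold change of -1.03. Replicate numbers showed no sign of pairing the samples, though 3 samples per group cannot settle this. Deviations from the group means correlated at -0.07, -0.20 and 0.06 for replicates 1, 2 and 3. Not every library correlated best with its own number.

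Genes that were not called changed sign in some settings, and the cause was not tested. With upper-quartile factors the log2 fold change was 0.13 for SLC7A11, 0.088 for GCLC, 0.065 for GCLM, 0.19 for AKR1C2 and 0.35 for AKR1C3, and the median of glutathione synthesis was 0.065. With the filter of 50 it was 0.033 for SLC7A11, 0.089 for AKR1C2 and 0.25 for AKR1C3. AKR1C2 and AKR1C3 gave 0.050 and 0.037 in limma-voom, 0.032 and 0.041 with the replicate block, and AKR1C3 gave 0.096 with plain library totals. SLC40A1 gave -0.084 without the low-count filter, -0.048 with log2(FPKM + 1), filtered or not, and -0.088 with log2(FPKM + 0.1). Leaving out 1 library gave -0.55 to 0.31 for SLC7A11, -0.56 to 0.52 for AKR1C2, -0.18 to 0.29 for AKR1C3, -0.077 to 0.23 for SLC40A1 and -0.055 to 0.18 for the log2 ratio of GCLC to GCLM. Precision did not follow depth alone: SLC40A1, with 73 to 135 reads per library, had an SE of 0.24, and TXNIP, with 215 to 11468, had one of 0.59.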

Other observations

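Several redox genes peaked together in control replicate 2. That library exceeded the median control library by 2.38 times for SLC7A11, 2.23 times for AKR1C2, 2.10 times for AKR1C1, 1.82 times for AKR1B10 and 1.63 times for TXNIP. In the 5-FU group the highest library exceeded the lowest by more than 2 times for SLC7A11, SRXN1, HMOX1 and TXNIP; for the first 3 the highest was replicate 3, and for TXNIP that library was the lowest, at 10.2 CPM. The median ratio of the highest to the lowest library over the 46 genes was 1.26 in control and 1.48 after 5-FU. Among all genes of the top quintile by mean count, control replicate 2 was the lowest of its group for 56.4%, whereas among the 35 redox genes of that quintile it was the highest for 20.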
